A study of Mus musculus with 16 samples.

Results

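TRAJ22 is a joining segment of the mouse T cell receptor alpha chain, and the cells described here are those whose leading alpha chain was annotated with it. They were chosen by the deposited J name of each chain and by its count of unique molecular identifiers (UMIs, tags that mark single captured molecules): the chain with the most UMIs was kept per cell. There were 420 such cells among 4935 cells with a productive alpha chain (8.51%) and 5908 cells in all, so the J name and the presence of TRAJ22 in a library are not findings. The cells were tumour-infiltrating lymphocytes from Hepa1-6 tumours, a mouse hepatoma line, grown in the liver (left lobe) of C57BL/6 animals and captured by 10x Genomics 5′ chemistry. Receptor libraries came in 4 groups of 2, namely KO at day 14, CON at day 14, KO at day 5 and CON at day 5 after injection. KO mice were CD4creMatr3fl/fl, so the floxed Matr3 alleles were open to a Cre recombinase driven by Cd4 regulatory sequence. CON mice were CD4creMatr3WT/WT and carried the same Cre with wild-type Matr3. Cre under Cd4 control acts from the stage in the thymus at which CD4 and CD8 are both expressed, so it is not limited to CD4+ cells. The labels give no age, and do not tell separate mice from repeat captures within a group, so p-values measure only the spread between libraries. The contig tables hold no Matr3 expression and no marker gene, so neither the deletion nor the lymphocyte label was checked here, and the RNA libraries of the same tumours were not analysed here.

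The alpha chain is made in the thymus by joining a variable (TRAV) to a joining (TRAJ) segment, and bases trimmed or added at the junction make the CDR3, the loop that touches the peptide held by an MHC molecule. The beta chain is joined from TRBV, TRBD and TRBJ segments, and a clonotype here is the set of cells of a library with the same alpha and beta V, J and CDR3 nucleotides. Cells of a clonotype are taken to descend from the same ancestor, so a joining segment can be common because many clonotypes use it or because few clonotypes have many cells. Invariant natural killer T (iNKT) cells use a fixed TRAV11 to TRAJ18 alpha chain and mucosal-associated invariant T (MAIT) cells a fixed TRAV1 to TRAJ33 chain, and both are set apart by those names.

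In the RefSeq annotation of GRCm38, Traj22 spans 60 bases of a joining segment at chr14:54197248-54197307, between Traj23 and Traj21. The segment was read from the deposited contigs, since the consensus of 179 different TRAJ22 chains gave the CDR3 part and 446 of 447 contigs shared the part after it. It is shown because every chain below ends with it. Capitals mark the 29 bases that lie in the CDR3, and the other 31 bases code the framework after it.
TRAJ22 segment: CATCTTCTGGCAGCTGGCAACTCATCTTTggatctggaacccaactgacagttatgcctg
The capitals from the 3′ end inwards were almost the same in all chains, with at least 92.2% of chains sharing each of the last 26 bases, and its first base was shared by 54.2%.

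By cells, TRAJ22 ranked between 1 and 3 of 43 TRAJ segments in 7 of the 8 libraries and 11 in day 14 KO replicate 1. In the day 14 tumours it held 2.59% (13 cells) and 9.22% (54 cells) of alpha-chain cells in the KO libraries of replicate 1 and 2, against 13.0% (161 cells) and 9.96% (72 cells) in the CON libraries. At day 5 it held 6.40% (27 cells) and 4.90% (19 cells) in the KO libraries, against 4.32% (20 cells) and 8.78% (54 cells) in the CON libraries. The day 14 libraries therefore held both the lowest and the highest shares, and their range covered that of day 5. With each clonotype counted once the shares drew together, at 3.77% and 7.60% in day 14 KO, 8.35% and 6.65% in day 14 CON, 6.63% and 4.85% in day 5 KO, and 4.58% and 6.04% in day 5 CON libraries. The exact 95% intervals of the cell shares, which cover counting error only, ran from 1.39 to 4.39% in day 14 KO replicate 1 and from 11.2 to 15.0% in day 14 CON replicate 1.

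**Figure D1:**
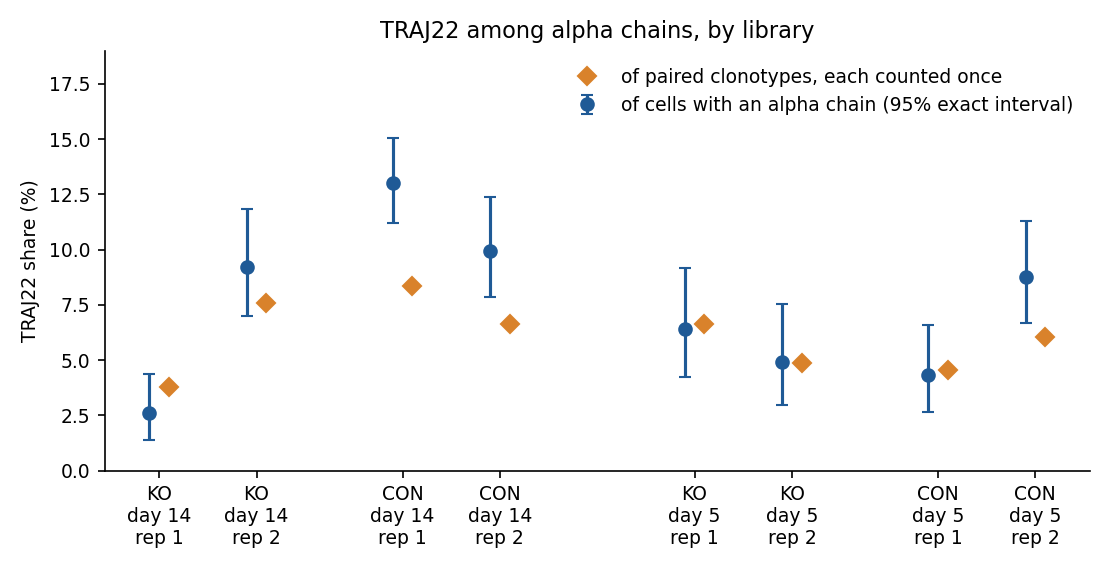
TRAJ22 share in percent (y axis) in each library (x axis), per cell with its exact 95% interval (circles) and per paired clonotype (diamonds). Day 14 KO replicate 1 is lowest at 2.59% of cells and day 14 CON replicate 1 highest at 13.0%, while the clonotype shares lie between 3.77% and 8.35%.

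The segment's share was compared in a model of all 98 V and J segments with at least 40 cells. TRAJ22 averaged 8.70 ± 4.39% at day 14 and 6.10 ± 1.99% at day 5 (n = 4 each, SD), and edgeR's quasi-likelihood test gave a log2 fold change of 0.45 ± 0.40 (SE) with a Benjamini-Hochberg adjusted p of 0.520. In that comparison 10 of 98 segments passed an adjusted p of 0.05 in either direction (10.2%), and TRAJ22 was not among them. The iNKT-type share of alpha-chain cells also differed between the days, at 3.18 to 5.80% in day 14 and 25.7 to 30.2% in day 5 libraries. MAIT-type chains were 4 cells in all, and no TRAV11 chain was joined to TRAJ22. Among cells without the iNKT-type, TRAJ22 averaged 9.06 ± 4.54% at day 14 and 8.52 ± 2.52% at day 5 (n = 4 each, SD), a log2 fold change of 0.03 with an edgeR adjusted p of 0.946.

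No difference between KO and CON libraries passed the test. Over both days TRAJ22 averaged 5.77 ± 2.78% in KO and 9.02 ± 3.61% in CON libraries (SD, n = 4 each), with an edgeR log2 fold change of -0.60 ± 0.40 (SE, adjusted p = 0.606). At day 14 the fold change was -0.95 ± 0.56 (adjusted p = 0.558, edgeR) and at day 5 it was -0.22 ± 0.58 (adjusted p = 0.979, edgeR). The difference between these effects was -0.73 ± 0.81 (adjusted p = 0.901, edgeR). None of the 98 segments passed in these comparisons (0%): edgeR gave 5 unadjusted p under 0.05 over both days, 11 at day 14, 0 at day 5 and 4 for the difference, and DESeq2 called 0 in each. The day 14 value rests on single libraries, since it was -0.32 without KO replicate 1 and -2.14 without KO replicate 2 (adjusted p = 0.0758, edgeR). The day 5 value was 0.39 without CON replicate 2 and 0.10 with each clonotype counted once.

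The neighbouring segments on chromosome 14 held smaller shares than TRAJ22 in every library but day 14 KO replicate 1, where TRAJ23 had 28 cells (5.58%) and TRAJ21 had 13, as did TRAJ22. TRAJ23 averaged 4.78 ± 0.59% of alpha-chain cells in day 14 and 3.61 ± 0.76% in day 5 libraries (SD, n = 4 each). TRAJ21 averaged 2.46 ± 0.72% in day 14 and 1.89 ± 0.80% in day 5 libraries. TRAJ24 was 0.199% and 1.37% in day 14 KO and 9.22% and 0.415% in day 14 CON libraries, against 0.515 to 1.46% at day 5, so a single library was high. The segments whose log2 shares ran most like those of TRAJ22 over the 8 libraries were TRBV5 (Pearson r = 0.83), TRAV7-6 (r = 0.79) and TRAJ24 (r = 0.72). These points share library and depth, and TRBV5 and TRAV7-6 are in part the same cells as TRAJ22.

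TRAJ22 was joined to 39 of 47 TRAV segments, where copies with D or N in the name (from the duplicated part of the locus) were merged. Among 198 paired clonotypes the TRAV partners named most often were TRAV7-6 (24 clonotypes), TRAV12-2 and TRAV6-6 (11 each), TRAV14-2 and TRAV7-2 (10 each), TRAV13-1 (9), and TRAV7-4 and TRAV9-1 (7 each). A TRAV segment codes most of the variable domain of the alpha chain. TRAV7-6 averaged 12.5 ± 11.9% of TRAJ22 clonotypes and 1.62 ± 1.07% of other clonotypes without the iNKT-type (SD, n = 8 libraries), and was higher among TRAJ22 clonotypes in 6 of 8 libraries. The other 7 lay much closer: TRAV12-2 averaged 5.24 ± 5.28% of TRAJ22 and 4.99 ± 0.93% of other clonotypes, TRAV6-6 4.96 ± 6.31% and 5.32 ± 1.64%, and TRAV14-2 5.28 ± 7.27% and 2.90 ± 0.95% (SD, n = 8). TRAV7-6 chains with TRAJ22 made up 22 clonotypes with 187 cells at day 14 and 2 clonotypes with 2 cells at day 5. By library they were 20.0% and 15.4% of TRAJ22 clonotypes in day 14 KO, 20.9% and 33.3% in day 14 CON, 0% and 5.56% in day 5 KO, and 5.00% and 0% in day 5 CON libraries. The day 14 values all lay above those of day 5.

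**Figure D2:**
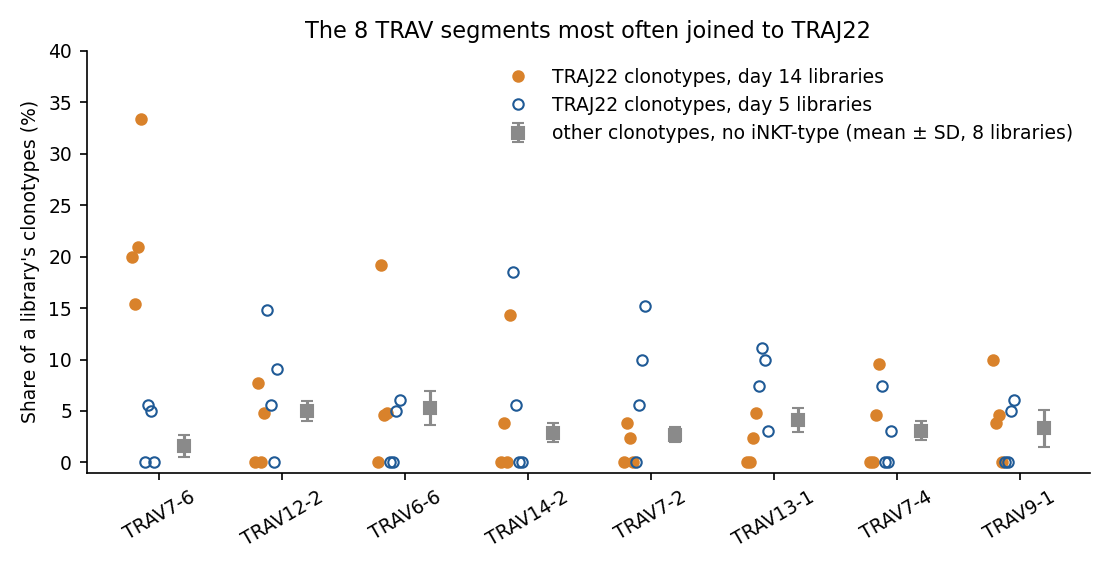
Share of a library's clonotypes in percent (y axis) that use each of the 8 TRAV segments most often joined to TRAJ22 (x axis), with a circle per library and squares for the mean ± SD of other clonotypes over 8 libraries. For TRAV7-6 the day 14 libraries sit between 15.4% and 33.3% and the day 5 libraries between 0% and 5.56%.

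TRAV segments near the joining segments (TRAV16 to TRAV21), which tend to join in the early rounds of alpha rearrangement, made up a small part of TRAJ22 clonotypes. They averaged 2.22 ± 3.45% of TRAJ22 and 8.01 ± 2.29% of other clonotypes (SD, n = 8), and TRAV16 with 6 clonotypes was the member found. The mean difference within libraries was -5.78 percentage points, lower for TRAJ22 in 7 of 8 libraries. An exact two-sided permutation test over all sign patterns of the 8 differences gave p = 0.0156, or 0.0625 after Benjamini-Hochberg adjustment over 4 within-library measures, and did not pass.

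Most TRAV7-6 to TRAJ22 cells belonged to a group of receptors with nearly the same build, found by inspection and so described without a test. In 19 of the 24 clonotypes, with 178 cells, the alpha chain had a CDR3 of 12 residues and was paired with a TRBV5 beta chain whose CDR3 had 11 residues. The beta chain used TRBJ2-7 in 18 of them and TRBJ2-5 in 1. The chains of the 5 largest of these clonotypes are printed to show how alike they are. Capitals mark the bases left between the V end and the J end. An end is the run of bases shared by at least 60% of chains with that segment. Each end was followed only to its first mismatch, so a base beyond that is a capital even where it matches the end. The TRAJ22 end is an exception. All 29 of its CDR3 bases were used, although the first was shared by 54.2% of chains. It was stopped there by the RefSeq length of 60 bases, although the base before, a G, was shared by 62.6% of chains.
Alpha, 87 cells, day 14 CON replicate 1: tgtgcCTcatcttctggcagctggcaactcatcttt
Beta, 87 cells, day 14 CON replicate 1: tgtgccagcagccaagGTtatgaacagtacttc
Alpha, 29 cells, day 14 CON replicate 2: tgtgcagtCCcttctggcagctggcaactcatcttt
Beta, 29 cells, day 14 CON replicate 2: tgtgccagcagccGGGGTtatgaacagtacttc
Alpha, 12 cells, day 14 KO replicate 2: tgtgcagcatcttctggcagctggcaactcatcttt
Beta, 12 cells, day 14 KO replicate 2: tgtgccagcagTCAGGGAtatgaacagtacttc
Alpha, 11 cells, day 14 CON replicate 2: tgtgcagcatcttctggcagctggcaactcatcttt
Beta, 11 cells, day 14 CON replicate 2: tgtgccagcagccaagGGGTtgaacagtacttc
Alpha, 7 cells, day 14 CON replicate 2: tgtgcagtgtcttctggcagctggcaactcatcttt
Beta, 7 cells, day 14 CON replicate 2: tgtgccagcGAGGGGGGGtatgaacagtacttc
The beta chains carried capitals in every clonotype, between 2 and 9 bases, while 8 of the 19 alpha chains carried none and the highest number was 5. The chains differ in build here: beta capitals can include bases of the TRBD segment, which was not marked apart, and alpha chains have no such segment. The alpha chains of 12 and 11 cells, from a KO and a CON library, have the same nucleotides and different beta chains.

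These receptors were found in every day 14 library and in no day 5 library. They were 0.209% (1 cell, 1 clonotype) and 3.85% (22 cells, 4 clonotypes) of paired cells in day 14 KO, against 8.49% (101 cells, 7 clonotypes) and 7.76% (54 cells, 7 clonotypes) in day 14 CON libraries. By cells the KO and CON libraries did not overlap. With each clonotype counted once, the group was 1 of 265 and 4 of 342 clonotypes in day 14 KO libraries. In day 14 CON libraries it was 7 of 515 and 7 of 316 clonotypes. How many other receptor groups separate the same libraries was not counted. With 2 libraries each and a group chosen from the same values no test was made. At day 5 there were 0 of 416 and 0 of 376 paired cells in KO libraries, which allows up to 0.721% and 0.798%. Day 5 CON libraries had 0 of 452 and 0 of 608, which allows up to 0.664% and 0.493%. The 0.209% of day 14 KO replicate 1 lies below these limits, so the day 5 libraries cannot be told apart from it. Paired cells here include the iNKT-type, which was more frequent at day 5. Of all TRAJ22 cells with both chains they made up 7.69% and 40.7% in day 14 KO, and 65.2% and 77.1% in day 14 CON libraries. Without them the TRAJ22 share of alpha-chain cells was 2.40% and 5.67% in day 14 KO and 5.29% and 2.69% in day 14 CON libraries. It then averaged 4.01 ± 1.71% at day 14 and 6.10 ± 1.99% at day 5 (n = 4 each, SD). As the group was chosen from these values and all its cells are from day 14, mostly from CON libraries, the lower day 14 mean and the smaller gap between KO and CON follow from the choice.

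**Figure D3:**
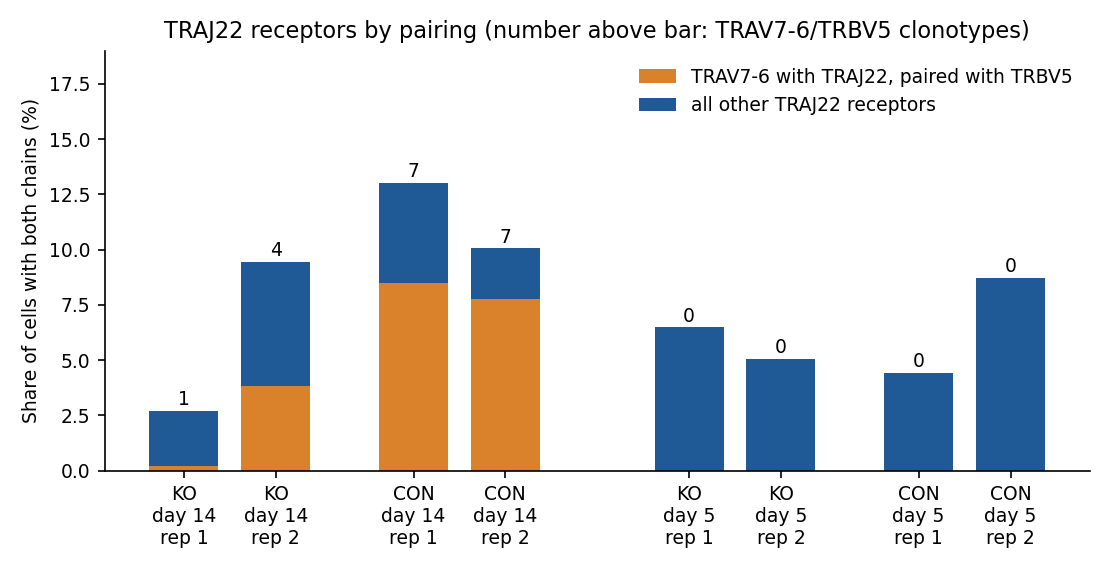
Share of cells with both chains in percent (y axis) that carry TRAJ22, in each library (x axis), split into TRAV7-6 to TRAJ22 receptors paired with TRBV5 (orange) and all other TRAJ22 receptors (blue), with the number of orange clonotypes above each bar. The orange part is 8.49% and 7.76% in the day 14 CON libraries, 0.209% and 3.85% in the day 14 KO libraries and 0% at day 5.

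The group held 12 alpha and 14 beta nucleotide sequences, which coded 7 alpha and 9 beta CDR3 protein sequences. No alpha and beta nucleotide pair occurred in more than 1 library, while 4 alpha and 3 beta sequences taken alone were in at least 2. Of 15 protein pairs, 3 occurred in 2 libraries. The pair with the most cells had 88 cells, 87 in day 14 CON replicate 1 and 1 in day 14 CON replicate 2, with different nucleotides in each. A pair with 21 cells was made by 3 nucleotide pairs in day 14 KO replicate 2 and day 14 CON replicate 1. A single beta CDR3 protein sequence was found in 119 cells of 3 libraries, coded by 6 beta nucleotide sequences and joined by 7 alpha nucleotide sequences. In all, 13 of the 19 clonotypes had at least 2 cells.

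Most cells with a beta chain of this build had this alpha chain. Of 201 cells with a TRBV5 to TRBJ2-7 beta chain of 11 residues, 175 had a TRAV7-6 to TRAJ22 alpha chain, 10 had another alpha chain and 16 had none recovered. Of those 16 cells, 14 carried a beta chain also seen with TRAV7-6 to TRAJ22 in their library. These are counts of cells: the 175 include clonotypes of 87 and 29 cells, while the 10 held 7 beta chains. At day 5 this beta build was in 2 cells of KO replicate 1, 1 with another alpha chain and 1 with none recovered. Of 62 cells with TRBV5 to TRBJ2-7 beta chains of other lengths, 0 had a TRAV7-6 to TRAJ22 alpha chain. The 5 other TRAV7-6 to TRAJ22 clonotypes held 11 cells and were paired with TRBV3, TRBV13-2, TRBV14 or TRBV15. They included both day 5 cells, whose chains are shown as the day 5 counterparts of the group.
Alpha, 1 cell, day 5 KO replicate 2: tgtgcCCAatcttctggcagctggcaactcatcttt
Alpha, 1 cell, day 5 CON replicate 1: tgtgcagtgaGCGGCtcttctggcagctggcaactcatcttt
The first has the length of 12 residues and a TRBV14 partner, and the second has 14 residues and a TRBV13-2 partner.

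The deposited V name was TRAV7N-6 in all 193 cells with TRAV7-6 and TRAJ22, whereas TRAV7-6 chains with other J segments were named TRAV7N-6 in 17 cells and TRAV7-6 in 27. RefSeq places Trav7n-6 at chr14:53324676-53325208 and Trav7-6 at chr14:53716760-53717291. These are copies in a duplicated part of the locus, and how well the deposited names tell them apart was not tested. TRAV7-6 with other J segments was 0 and 5 cells in day 14 KO, 14 and 1 in day 14 CON, 4 and 7 in day 5 KO, and 6 and 7 in day 5 CON libraries.

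The CDR3 of TRAJ22 alpha chains had 11 to 17 residues, with a median of 14 over clonotypes. The 12-residue class, which holds the TRBV5-paired group, was 20.0% and 15.4% of TRAJ22 clonotypes in day 14 KO, 20.9% and 38.1% in day 14 CON, 3.70% and 11.1% in day 5 KO, and 5.00% and 0% in day 5 CON libraries. It averaged 23.6 ± 9.96% at day 14 and 4.95 ± 4.62% at day 5 (n = 4 each, SD), and the libraries of the days did not overlap. Of the 23 day 14 clonotypes in this class, 19 belong to the TRBV5-paired group. The gap therefore largely restates that group, which was chosen from these values, and was not tested. By clonotypes the 14-residue class was the most frequent on both days, with 43 of 100 at day 14 and 56 of 98 at day 5. By cells the 12-residue class led at day 14, with 188 cells against 66 of 14 residues, while at day 5 it had 4 cells against 71 of 14 residues. The 12-residue chains with the most cells were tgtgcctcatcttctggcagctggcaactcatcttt (91 cells in 2 libraries), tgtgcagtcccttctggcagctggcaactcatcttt (35 cells in 3 libraries) and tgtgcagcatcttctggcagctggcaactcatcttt (33 cells in 4 libraries). These cells include nucleotide variants that code the same protein sequence, and all but 1 of them used TRAV7-6.

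**Figure D4:**
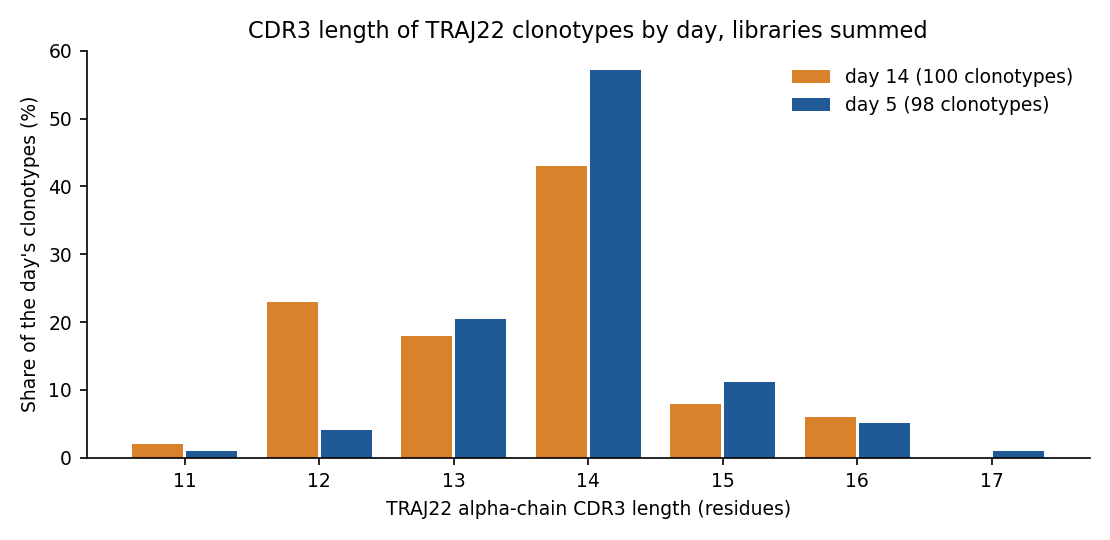
CDR3 length in residues (x axis) of TRAJ22 clonotypes and their share of the day's clonotypes in percent (y axis), with the libraries of a day summed (100 clonotypes at day 14, 98 at day 5). The 12-residue class is 23.0% at day 14 and 4.08% at day 5, and the 14-residue class is the tallest on both days.

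On the beta side TRAJ22 cells used 21 TRBV names and 12 TRBJ segments. TRBV5 led with 28 clonotypes, of which 21 were from day 14 and 7 from day 5. It averaged 13.3 ± 12.5% of TRAJ22 clonotypes and 6.05 ± 1.91% of other clonotypes (SD, n = 8). The TRAV7-6 group described above supplied 19 of the 28 TRBV5 clonotypes, and 18 of the 49 TRBJ2-7 clonotypes given below. TRBV16 followed with 20 clonotypes, the joint name TRBV12-2+TRBV13-2 and TRBV3 with 18 each, TRBV19 with 15 and TRBV13-1 with 14. These beta variable segments were spread over both days, with 11, 11, 9, 7 and 7 clonotypes at day 5, and TRBV16 averaged 9.66 ± 7.94% of TRAJ22 and 6.16 ± 1.70% of other clonotypes (SD, n = 8). TRBV3 averaged 7.86 ± 5.53% of TRAJ22 and 12.4 ± 4.65% of other clonotypes and was higher for TRAJ22 in 2 of 8 libraries. TRBV12-1, named after its values were seen, averaged 0.86 ± 1.61% of TRAJ22 and 6.03 ± 2.10% of other clonotypes and was higher for TRAJ22 in 0 of 8 libraries. Among beta joining segments TRBJ2-7 had 49 clonotypes with 213 cells, TRBJ2-5 24, TRBJ1-1 21 and TRBJ1-2 20 clonotypes. TRBJ1-2 averaged 10.6 ± 7.0% of TRAJ22 and 5.09 ± 0.89% of other clonotypes (SD, n = 8) and was higher for TRAJ22 in 6 of 8 libraries. The TRBJ2 cluster as a whole averaged 63.3 ± 11.4% of TRAJ22 and 69.1 ± 1.99% of other clonotypes, a mean difference of -5.77 percentage points (exact permutation p = 0.234, adjusted p = 0.312, lower in 5 of 8 libraries). The beta CDR3 averaged 13.7 ± 0.58 residues in TRAJ22 and 13.9 ± 0.07 in other clonotypes, a difference of -0.19 (exact permutation p = 0.352 raw and adjusted, lower in 6 of 8 libraries).

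The 411 TRAJ22 cells with both chains formed 198 clonotypes, of which 168 were single cells and 30 held at least 2 cells. The largest TRAJ22 clonotype had 2 and 12 cells in day 14 KO and 87 and 29 cells in day 14 CON libraries. At day 5 the largest had 1 and 2 cells in KO and 1 and 15 cells in CON libraries, so the largest of day 5 CON replicate 2 exceeded those of both day 14 KO libraries. Only 5 clonotypes reached 10 cells and together they held 154 cells. Of these, 4 were TRAV7-6 with TRBV5 and the other was the 15-cell clonotype of day 5 CON replicate 2, a TRAV9-1 alpha chain with a TRBV26 to TRBJ1-2 beta chain. The leading TRAJ22 alpha chain of the other libraries with small clones had 3 cells in day 14 KO replicate 1 (TRAV7-6), 3 in day 5 KO replicate 1 (TRAV14-2) and 2 in day 5 KO replicate 2 (TRAV9-3), and in day 5 CON replicate 1 each of the 20 chains had a single cell. The chains of the 15-cell clonotype are printed as the largest TRAJ22 receptor outside the group, and the alpha chain has no base outside the V and J ends.
Alpha, 15 cells, day 5 CON replicate 2: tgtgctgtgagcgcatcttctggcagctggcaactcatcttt
Beta, 15 cells, day 5 CON replicate 2: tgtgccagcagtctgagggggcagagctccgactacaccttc

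Of TRAJ22 cells with both chains, 46.2% and 68.5% in day 14 KO and 77.4% and 80.0% in day 14 CON libraries were in expanded clonotypes (at least 2 cells). At day 5 the values were 0% and 10.5% in KO and 0% and 41.5% in CON libraries, so every day 14 library lay above every day 5 library. Libraries held 478 to 1189 paired cells at day 14 and 376 to 608 at day 5. The shares were not equalised for cell number. The mean was 68.0 ± 15.4% at day 14 and 13.0 ± 19.6% at day 5 (n = 4 each, SD), a difference of 55.0 percentage points. The exact two-sided permutation test over 36 relabellings gave p = 0.0556, the smallest it can give. Other cells without the iNKT-type averaged 60.2 ± 7.13% at day 14 and 7.23 ± 5.01% at day 5. KO libraries averaged 31.3 ± 31.7% and CON libraries 49.7 ± 37.5% (SD, n = 4 each), a difference of -18.4 points over both days (exact permutation p = 0.222).

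Within libraries, the expanded share of TRAJ22 cells minus that of other cells averaged 6.80 ± 13.3 percentage points (SD, n = 8). It was above 0 in 5 of 8 libraries, with an exact permutation p of 0.188 (adjusted p = 0.312). The TRBV5-paired TRAV7-6 group held 4 of the 5 TRAJ22 clonotypes with at least 10 cells, so leaving it out of the TRAJ22 cells alone lowers their expanded share by construction in the libraries that hold those clonotypes. The day 14 CON libraries then had 40.7% and 25.0% of TRAJ22 cells in expanded clonotypes, and the day 14 KO libraries 50.0% and 46.9%. KO replicate 1 thus rose from 46.2%. These values are given as a description only.

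**Figure D5:**
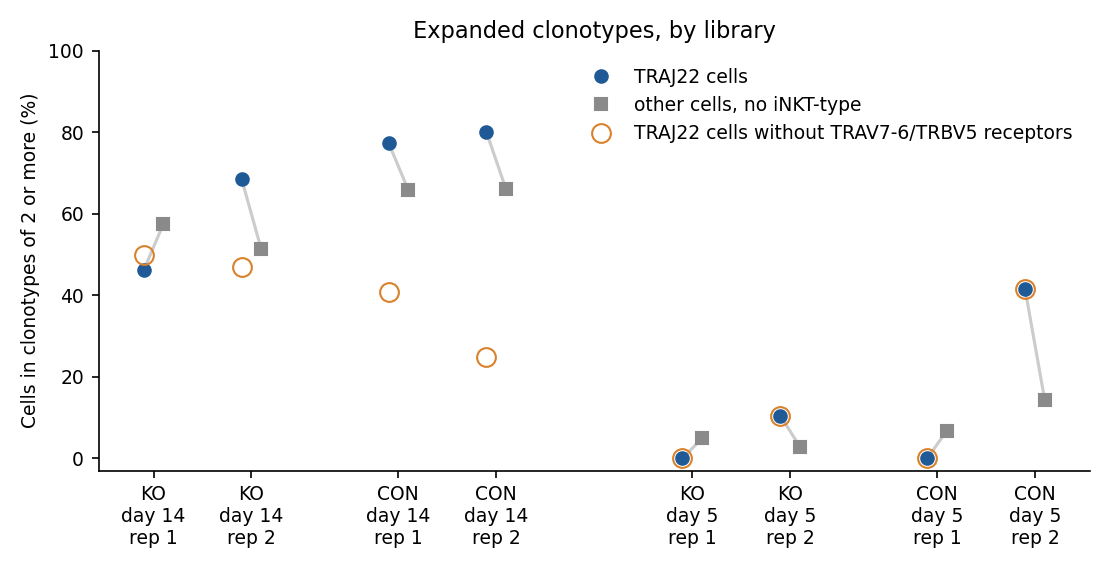
Percent of paired cells in clonotypes of 2 or more cells (y axis) by library (x axis), for TRAJ22 cells (filled circles), TRAJ22 cells without the TRAV7-6 receptors paired with TRBV5 (open circles) and other cells without the iNKT-type (squares). In the day 14 CON libraries the filled circles are at 77.4% and 80.0%, the squares at 65.9% and 66.0% and the open circles at 40.7% and 25.0%.

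TRAJ22 alpha chains recurred between libraries. Of 167 chains defined by TRAV and CDR3 protein sequence, 16 (9.58%) were in at least 2 libraries and 6 in 3 libraries. Among other chains without the iNKT-type, 47 of 2343 (2.01%) were in at least 2 libraries. Across the 34 J segments compared the median share was 1.78%, and TRAJ22 had the highest. This share depends on how many chains a segment has and how often its cells were sampled, and no test was made. Of the 16 chains, 8 were found on both days, 10 in both genotypes and 10 with at least 2 nucleotide variants. Of these 16, 4 were TRAV7-6 chains, all from day 14 libraries.

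The chains in 3 libraries outside TRAV7-6 came from both days. The TRAV9-1 chain printed above was in 18 cells, with 1 in each of the day 14 KO libraries and 16 in day 5 CON replicate 2. A TRAV14-2 chain was in 6 cells, with 1 in day 14 KO replicate 2, 2 in day 14 CON replicate 2 and 3 in day 5 KO replicate 1, joined to 6 different beta chains. The same CDR3 nucleotides were also found under TRAV14-1 and TRAV14-3, and over these 3 names they were in 11 cells of 4 libraries with 11 different beta chains. It is shown as the TRAJ22 CDR3 with the most V names, with its single base outside the V and J ends in capitals. That base is the G just before the 29 bases, which 62.6% of TRAJ22 chains shared. Whether it was added at the junction was not tested.
TRAV14-2 with TRAJ22: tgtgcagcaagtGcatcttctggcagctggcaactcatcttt
In 15 of the 16 recurring chains no beta chain with the same nucleotides was shared between libraries. By protein sequence, 3 alpha and beta pairs of the TRAV7-6 group were each in 2 libraries, as given above.

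The exception was a TRAV6-6 chain with a CDR3 of 16 residues in 2 cells of day 14 KO replicate 2 and 1 cell of day 14 CON replicate 2. Its alpha nucleotides differed between the libraries and its beta nucleotides were the same in both. It is printed with its 6 bases outside the V and J ends in capitals, the last of them again the G just before the TRAJ22 end.
TRAV6-6 with TRAJ22: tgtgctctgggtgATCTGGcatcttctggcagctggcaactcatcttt
Across all pairs of libraries 21 cell barcodes were shared, 2 of them in a TRAJ22 cell, and in 0 of the 21 was the alpha or the beta chain the same in both libraries.

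Sequencing depth was of the same order in TRAJ22 and other cells. The median UMI count of the leading alpha chain was 3.5 to 5.5 in TRAJ22 cells and 3 to 5 in other cells by library, and the libraries held 1907 to 8260 alpha-chain UMIs over 388 to 1236 cells. Only 9 of the 420 TRAJ22 cells had no beta chain. A second productive alpha chain was found in 35 TRAJ22 cells, and TRAJ22 was the weaker of 2 alpha chains in 21 further cells. Possible doublets, counted as cells with at least 2 productive beta or at least 3 productive alpha chains, were 16 of the TRAJ22 cells. In contigs that code no functional chain, TRAJ22 was 6.44% and 8.21% of alpha contigs in day 14 KO, 1.69% and 1.8% in day 14 CON, 1.94% and 7.30% in day 5 KO, and 5.13% and 6.70% in day 5 CON libraries. The day 14 CON libraries and day 5 KO replicate 1 had the lowest values. These rest on 7 of 414 and 4 of 222 contigs in day 14 CON and 3 of 155 in day 5 KO replicate 1. Contigs were counted in each cell, so those of expanded clonotypes can count more than once.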

How the data were processed

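The authors deposited a contig table per receptor library, with UMI and read counts per contig; the submitters' processing notes name CASAVA 1.8, Cell Ranger 3.1.0, R 4.1.2, Seurat 4.0.0 and GRCm38 (mm10), without roles. Contigs marked as cell, high confidence and productive were kept, and the alpha and beta chain with the most UMIs was used per barcode. V copies with D or N in their names were merged, and the joint name TRBV12-2+TRBV13-2 was kept. Segment cell counts per library were tested in edgeR 4.0.16 (quasi-likelihood, library cell numbers as offsets, 98 segments with at least 40 cells, Benjamini-Hochberg over all). DESeq2 1.42.0 was an alternative. Both ran in R 4.3.3, and the model was tested on simulated data. Expanded shares and within-library differences were tested by exact permutation over libraries (Python 3.11.15). Intervals are Clopper-Pearson at 95%, a count of 0 is given a limit of 3 counts, and both cover counting error only. Alternatives were other scalings, no count filter, a replicate block, clonotypes counted once, at least 2 UMIs, no possible doublets, no iNKT-type cells, all productive alpha chains, other clonotype and expansion rules and each library left out. Leaving out the TRBV5-paired TRAV7-6 cells and fitting each day alone were added after seeing the data.

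Members and lists were chosen with earlier results of these data known. Named were the 8 TRAV, 6 TRBV and 4 TRBJ partners with most TRAJ22 clonotypes, each library's leading TRAJ22 chain, the 3 CDR3 with most cells, up to 10 shared chains, the 3 segments with the most similar log2(percent + 0.5) and the neighbours TRAJ21, TRAJ23 and TRAJ24. CDR3 sequences are from the deposited contigs, and positions from RefSeq on GRCm38.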

Additional observations from a re-analysis of the deposited data

How the results depend on the processing

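TRAJ22 passed an adjusted p of 0.05 in none of the edgeR or DESeq2 settings run for the 5 share comparisons. Leaving out the TRAV7-6 cells paired with TRBV5 reversed TRAJ22 by day (-0.596), KO against CON at day 14 (0.00753), the change of the KO effect (0.228), the expanded share by genotype (0.0378 points), the within-library expanded difference (-6.88 points) and the beta CDR3 length difference (0.0691 residues). These cells were chosen from the same values and belong to the 4 day 14 libraries, so these turns follow in part from the choice and support nothing. KO against CON at day 5 was 0.101 with each clonotype counted once.

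With single libraries left out, the log2 fold change ranged from 0.172 to 0.762 by day, from -0.916 to -0.266 for KO against CON over both days, from -0.634 to 0.386 at day 5, from -2.14 to -0.321 at day 14 and from -1.92 to -0.0982 for the change between days. The expanded difference ranged from 44.6 to 65.4 points by day and from -28.8 to -8.06 by genotype. Segments called by day were 10, against 18 with each clonotype counted once (87 tested) and 2 without iNKT-type cells, and 3 to 12 with single libraries left out (3 without day 5 CON replicate 1, 6 without day 5 CON replicate 2 and 6 without day 5 KO replicate 1). At day 14 the calls for KO against CON were 0 to 5 with single libraries left out (5 without KO replicate 2, 2 without KO replicate 1 and 1 without CON replicate 1).

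The labels do not say that replicate numbers pair libraries. The differences of replicate 1 minus replicate 2 in the log2 shares of 98 segments were correlated between groups. These correlations ran from -0.13 to 0.123 over 6 pairs of groups. With a replicate block TRAJ22 had a log2 fold change of 0.454 by day and -1.1 for KO against CON at day 14 (edgeR adjusted p = 0.499 and 0.502), and 7 segments were called by day. The exact permutation p of the expanded share by day was 0.125 with the replicate block, the smallest its 16 swaps can give. With 2 libraries per group and 13 to 161 TRAJ22 cells per library, the differences in TRAJ22 share were within the spread between libraries, and the permutation tests over libraries could not reach 0.05 for the expanded share by day or genotype.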
